A study of Mus musculus with 6 samples.

Results

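The major histocompatibility complex (MHC) genes of embryonic mouse skin are described here through 10 genes, chosen by symbol from 55401 gene identifiers in the deposited count table. They are 6 class II genes (H2-Eb1, H2-Aa, H2-Ab1, Cd74, H2-DMa and Ciita) and 4 class I genes (H2-K1, H2-D1, B2m and Tap1). The genes were chosen with their values in this comparison already known, so those values are a description and carry no test. All 10 passed the filter on low counts. The study profiled back skin of E15.5 embryos by RNA sequencing, from 3 control embryos and 3 Prmt5 conditional knockout (cKO) embryos, 1 library from each embryo. Prmt5 encodes an arginine methyltransferase of histones and splicing proteins. The series title places its loss in the epidermis. The samples hold epidermis and dermis together, and the sample labels used here give no Cre line, mouse strain, sex or litter for either group. The deposited tables are labelled Prmt5 CRECT against CTRL, and nothing in the labels spells out CRECT.

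MHC class I molecules show peptides from inside the cell to CD8+ T cells. A heavy chain (H2-K or H2-D in the mouse) pairs with beta-2 microglobulin, and the peptides, cut by the proteasome, enter the endoplasmic reticulum through the Tap1-Tap2 transporter. Class II molecules are pairs of an alpha and a beta chain, A (H2-Aa with H2-Ab1) or E (H2-Ea with H2-Eb1), that show endocytosed peptides to CD4+ T cells. The invariant chain Cd74 occupies the class II groove until H2-DM exchanges it for peptide, and Ciita is the transactivator that class II transcription needs. Dendritic cells, B cells and macrophages are the usual class II producers, while most nucleated cells make class I.

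The promoters printed first are those of H2-Eb1, of H2-Aa as the A chain with an entry in the promoter table, and of H2-K1 and H2-D1, the class I heavy chains, which varied in opposite directions. Each is the 250 bases before the RefSeq transcription start on GRCm38.p6, read 5′ to 3′ on the gene's strand. Capitals mark CCAAT on either strand (ATTGG is its complement) and CTNGCAACT, a core of the X box that the RFX complex binds in class II promoters. H2-Eb1 is chr17:34305617-34305866 on the plus strand and H2-Aa is chr17:34287824-34288073 on the minus strand. H2-K1 is chr17:34000334-34000583 on the minus strand and H2-D1 is chr17:35262844-35263093 on the plus strand.
H2-Eb1: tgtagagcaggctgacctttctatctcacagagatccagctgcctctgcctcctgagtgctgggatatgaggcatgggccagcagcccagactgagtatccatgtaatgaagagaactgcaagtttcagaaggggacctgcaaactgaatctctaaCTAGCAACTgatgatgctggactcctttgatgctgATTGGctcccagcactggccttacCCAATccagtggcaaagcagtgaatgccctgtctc
H2-Aa: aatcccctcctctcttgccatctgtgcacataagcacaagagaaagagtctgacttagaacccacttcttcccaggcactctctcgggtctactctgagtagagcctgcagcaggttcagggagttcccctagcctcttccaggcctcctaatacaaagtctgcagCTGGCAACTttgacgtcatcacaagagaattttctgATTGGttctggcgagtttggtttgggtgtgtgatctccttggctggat
H2-K1: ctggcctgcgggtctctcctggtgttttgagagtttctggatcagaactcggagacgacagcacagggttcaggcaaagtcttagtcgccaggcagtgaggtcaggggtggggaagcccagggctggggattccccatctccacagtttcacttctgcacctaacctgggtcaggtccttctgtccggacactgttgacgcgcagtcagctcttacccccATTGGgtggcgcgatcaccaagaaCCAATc
H2-D1: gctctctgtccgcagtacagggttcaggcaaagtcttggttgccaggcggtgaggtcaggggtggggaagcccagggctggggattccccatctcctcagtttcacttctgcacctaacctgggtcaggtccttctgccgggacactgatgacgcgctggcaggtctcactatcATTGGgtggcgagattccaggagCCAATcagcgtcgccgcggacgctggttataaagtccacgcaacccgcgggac

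CTNGCAACT lay 94 bases before the start of H2-Eb1 and 84 bases before that of H2-Aa, in each case with an ATTGG on its downstream side, at 59 and 48 bases. The letters CTNGCAACT were set after these windows had been read, and they occur in 0.779% of 32851 RefSeq promoter windows of this length, against 33.8% for CCAAT. The H2-K1 and H2-D1 windows matched at 187 of 204 aligned bases (91.7%), and the H2-Eb1 and H2-Aa windows at 144 of 198 (72.7%). A pair from different classes, H2-K1 and H2-Eb1, matched at 152 of 214 (71%), so 72.7% shows no likeness particular to class II. GGGA and CC with any 4 bases between them, a form of the kappa-B motif, was found on either strand in the H2-K1, H2-D1 and H2-Aa windows and in 17.6% of all windows. A match describes the letters and is not a measured binding site. Of the 10 genes 7 had an entry in the promoter table, and H2-Ab1, Cd74 and Ciita did not.

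The deposited counts summed to between 35667634 and 66122667 per library. Prmt5 itself had 3094, 2656 and 2384 counts in control skin and 1271, 1817 and 1258 in cKO skin. The log2 fold change was -1.07 ± 0.19 (SE), which edgeR called at an adjusted p of 0.00292. Permuting the 6 libraries exactly (two-sided) gave p = 0.1, the smallest that 3 against 3 allows. Keratinocyte transcripts were abundant, with Krt5 at 2352 ± 127 CPM in control and 1492 ± 128 CPM in cKO skin (SD, n = 3 each). CPM are counts relative to TMM-scaled library sizes. The 16 pan-epithelial genes had a median log2 fold change of -1.15, and 14 of them fell by edgeR, where 19.6% of all genes did. In bulk tissue, fewer cells of a type and less RNA per cell cannot be told apart, and the epithelial genes move with every comparison that follows. Scaling the libraries to the pan-epithelial genes raised the median log2 fold change of all genes from -0.008 to 0.928, with Prmt5 at -0.12 and no longer called. Scaling them to the pan-leukocyte and macrophage genes lowered it to -0.363. Directions below are those with TMM scaling, relative to the median gene.

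H2-Eb1, the beta chain of the E molecule, was the only 1 of the 6 class II genes whose groups did not overlap. It lies on chromosome 17 from 34305867 to 34316674 (GRCm38, plus strand, ENSMUSG00000060586.11). It had 76, 183 and 91 counts in control skin and 1540, 2362 and 1299 in cKO skin. The levels were 1.71, 2.76 and 2.59 CPM in controls and 32.8, 39.9 and 27.7 CPM in the cKO, so every cKO library lay far above every control. The means of 2.36 ± 0.563 and 33.5 ± 6.13 CPM (SD, n = 3 each) are 14.2-fold apart, and the log2 fold change was 3.82 ± 0.21 (SE). H2-Ea, which encodes the alpha chain that pairs with H2-Eb1 and is annotated as a polymorphic pseudogene, had 0 counts in all 6 libraries. A floor of 3 counts corresponds to 0.0453 to 0.0854 CPM in these libraries and covers counting error only. H2-Ea was looked up after the values of H2-Eb1 were seen.

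The A molecule did not follow H2-Eb1. H2-Aa, its alpha chain, measured 2.50, 3.35 and 1.94 CPM in controls and 1.02, 2.52 and 3.35 CPM in the cKO. H2-Ab1, its beta chain, measured 2.71, 4.65 and 3.93 CPM in controls and 1.34, 2.74 and 3.97 CPM in the cKO. Both sets overlap, and cKO replicate 1 was the lowest library for each chain. The log2 fold changes were -0.18 ± 0.40 for H2-Aa and -0.49 ± 0.37 (SE) for H2-Ab1. Per kilobase of exon, the ratio of H2-Eb1 to H2-Ab1 was 0.785 to 0.871 in the controls and 9.23 to 32.3 in the cKO. The ratio of H2-Aa to H2-Ab1 stayed between 0.333 and 0.625 in the controls and between 0.515 and 0.622 in the cKO.

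The remaining class II genes overlapped between the groups as well. Cd74, the invariant chain, had 282, 779 and 345 counts in controls and 271, 451 and 448 in the cKO, with a log2 fold change of -0.29 ± 0.25 (SE). Ciita, the class II transactivator, was barely detected, with 16, 43 and 14 counts in controls and 8, 23 and 23 in the cKO. Its log2 fold change was -0.44 ± 0.48 (SE), which is within its error at these counts. H2-DMa, the alpha chain of the peptide exchanger H2-DM, measured 2.21, 3.90 and 5.69 CPM in controls and 3.35, 5.61 and 2.79 CPM in the cKO, a log2 fold change of 0.01 ± 0.37 (SE). The median log2 fold change was -0.24 over the 6 class II genes and -0.29 without H2-Eb1, where all genes tested had a median of -0.008.

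**Figure D1:**
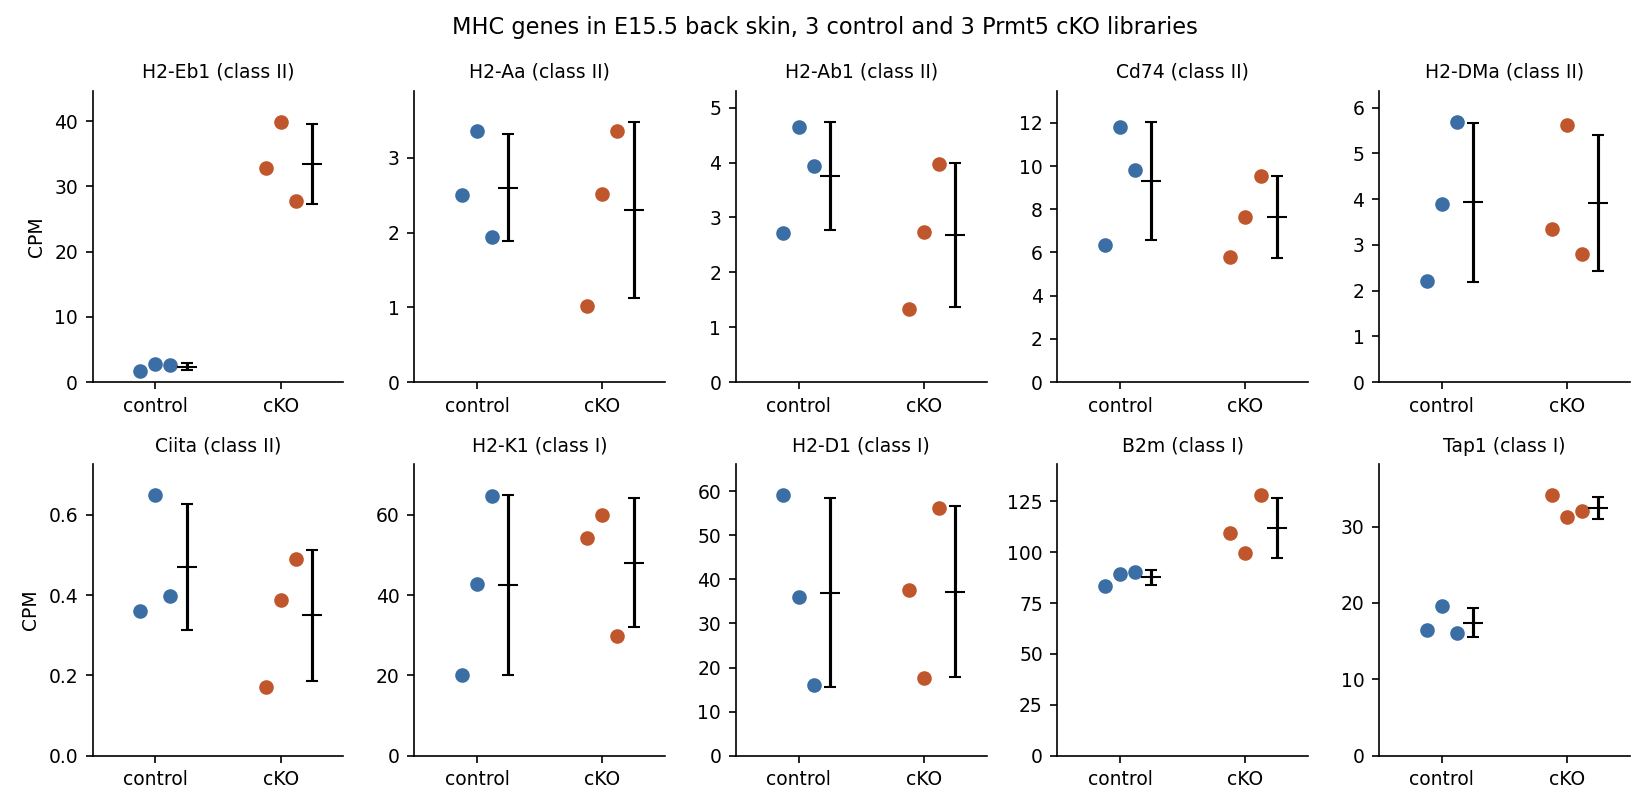
Level of each of the 10 MHC genes in CPM (vertical axes, each from 0) in 3 control (blue) and 3 Prmt5 cKO (orange) libraries; each point is 1 library, and the black bars give the mean ± SD of the group. H2-Eb1, B2m and Tap1 have every cKO point above every control point, and the other 7 genes overlap.

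Among the class I genes, the levels of the transporter subunit Tap1 and of the light chain lay higher in every cKO library with TMM scaling, and the heavy chains overlapped. Tap1, a subunit of the peptide transporter (chromosome 17, 34187553 to 34197225, plus strand), measured 16.5, 19.6 and 16.1 CPM in controls and 34.1, 31.3 and 32.0 CPM in the cKO. Its means of 17.4 ± 1.90 and 32.4 ± 1.46 CPM (SD, n = 3 each) are 1.86-fold apart, with a log2 fold change of 0.89 ± 0.09 (SE). B2m, the light chain shared by class I molecules (chromosome 2, 122147686 to 122153083, plus strand), measured 83.4, 89.2 and 90.3 CPM in controls and 109.6, 99.5 and 128 CPM in the cKO. The groups of B2m did not overlap, but the lowest cKO library lay only just above the highest control, and the log2 fold change was 0.36 ± 0.09 (SE). It was 0.00 with leukocyte scaling and 1.29 with pan-epithelial scaling. H2-K1 measured 20.0, 42.9 and 64.7 CPM in controls and 54.2, 60.1 and 29.9 CPM in the cKO, a log2 fold change of 0.18 ± 0.39 (SE). H2-D1 measured 59.1, 35.9 and 16.1 CPM in controls and 37.7, 17.6 and 56.3 CPM in the cKO, a log2 fold change of 0.00 ± 0.50 (SE). Both heavy chains spread widely inside each group.

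Per kilobase of exon, B2m was the most abundant of the 10 genes in controls at 102 ± 4.28 CPM per kb (SD, n = 3). H2-K1 (14.5 ± 7.61) and H2-D1 (14.4 ± 8.34 CPM per kb) came next and did not differ beyond their spread. Cd74 (5.55 ± 1.63) and Tap1 (3.18 ± 0.348 CPM per kb) followed. H2-Ab1 (1.46 ± 0.383), H2-Eb1 (1.21 ± 0.290) and H2-DMa (1.14 ± 0.505 CPM per kb) lay within their spread of one another. H2-Aa (0.684 ± 0.188) and Ciita (0.0492 ± 0.0164 CPM per kb) closed the order. The lengths merge all annotated exons of a gene over its transcripts, and the order depends on that choice. In the cKO H2-Eb1 stood at 17.2 ± 3.16 CPM per kb, beside H2-K1 at 16.4 ± 5.46 and H2-D1 at 14.4 ± 7.51, and below B2m at 131 ± 17.0.

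By the test applied to all genes, 3 of the 10 (H2-Eb1, Tap1 and B2m) had an adjusted p below 0.05 in the direction of the cKO and 0 in the other. For background, 16.3% of 19227 genes tested were called higher and 19.6% lower. The same 3 genes were the ones whose groups did not overlap, where 49.9% of all genes did not overlap, 23.3% higher and 26.6% lower in the cKO. Since the genes were chosen on this contrast, nothing is read from these counts. In the authors' deposited table, the Sleuth effect on the natural log scale was 2.63 for H2-Eb1, 0.43 for Tap1 and 0.22 for B2m. For the other 7 genes the authors' deposited table gives Sleuth effects between -0.45 (H2-Ab1) and 0.10 (H2-K1).

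H2-K1 and H2-D1 varied in opposite directions across the libraries, within both groups. H2-D1 was highest in control replicate 1 and cKO replicate 3, the libraries in which H2-K1 was lowest, and lowest in control replicate 3 and cKO replicate 2, in which H2-K1 was highest. H2-K1 made up 25.3%, 54.5% and 80.1% of the H2-K1 plus H2-D1 counts in controls and 59.0%, 77.4% and 34.7% in the cKO. The sum of the 2 genes was nearly level, at 79.1, 78.8 and 80.8 CPM in controls and 91.9, 77.7 and 86.2 CPM in the cKO. The within-group SD of log2(CPM + 0.5) was 0.89 for H2-D1 and 0.71 for H2-K1. These exceed the SD of 99.3% and 98.9% of the 15668 genes with a mean log2 CPM of at least 0, whose median SD was 0.11. Tap1 (0.11) and B2m (0.14) lay near that median.

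Other genes of the H2 region, chosen after their values were seen, shared the pattern. H2-DMa and H2-DMb2 (a DM beta chain) ranked the 6 libraries in exactly the reverse order of H2-D1. H2-DMb2 measured 0.203, 0.649 and 1.22 CPM in controls and 0.320, 1.15 and 0.277 CPM in the cKO. Msh5, a meiotic mismatch repair gene of the region, measured 1.80, 2.57 and 4.87 CPM in controls and 3.75, 4.95 and 1.98 CPM in the cKO. The class Ib genes H2-T24 and H2-Q4 followed H2-D1 instead. H2-T24 measured 4.71, 3.53 and 0.883 CPM in controls and 4.37, 1.86 and 5.01 CPM in the cKO. H2-Q4 measured 8.09, 3.73 and 2.22 CPM in controls and 10.4, 2.38 and 12.5 CPM in the cKO. These low counts and near-identical copies leave the single values of the H2-Q and H2-T genes uncertain. In the reference transcripts, no 100-base stretch of H2-K1 occurred in H2-D1, and 0.957% of H2-K1 and 3.59% of H2-D1 stretches occurred in any other gene. At 50 bases, 4.08% of the H2-K1 stretches occurred in H2-D1. The reference build mm10 carries the C57BL/6J sequence. The labels used here give no strain, and the part of H2 haplotype and of read alignment in this pattern was not tested.

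**Figure D2:**
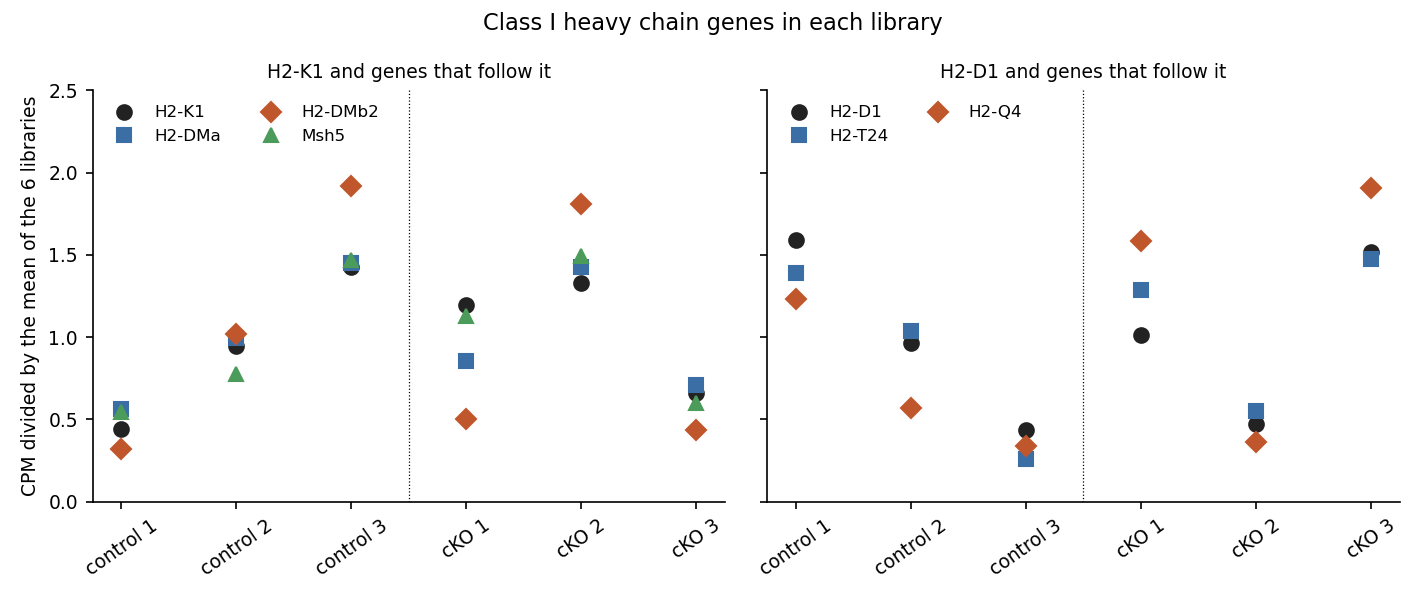
CPM of each gene divided by its own mean over the 6 libraries (vertical axis), for H2-K1, H2-DMa, H2-DMb2 and Msh5 (left) and H2-D1, H2-T24 and H2-Q4 (right), by library (horizontal axis); the dotted line separates the groups. The genes on the left are low in control replicate 1 and cKO replicate 3 and high in control replicate 3 and cKO replicate 2, and those on the right do the reverse.

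The log2 fold change of H2-Eb1 was not shared by its chromosomal neighbours. Within 2000 kb on either side of its start, 168 other genes that are not among the 10 were tested, and 28.0% of them were called by edgeR, 18 higher and 29 lower, where 35.9% of all genes were called. The largest log2 fold change among these 168 was 1.86 (H2-Q2), which did not pass. Of the genes tested, the nearest at lower coordinates was H2-Aa, which begins 23.1 kb before H2-Eb1. The nearest at higher coordinates was Notch4, a receptor of endothelial cells, which begins 258.4 kb after it, with a log2 fold change of 0.30 and an adjusted p of 0.0868 by edgeR. Tap1 lies among Psmb9, Psmb8 and Tap2, with log2 fold changes of 0.83, 0.60 and 0.71, of which Psmb8 did not pass (adjusted p of 0.0523 by edgeR). Notch4, H2-Q2 and Psmb8 were named after their values were seen.

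**Figure D3:**
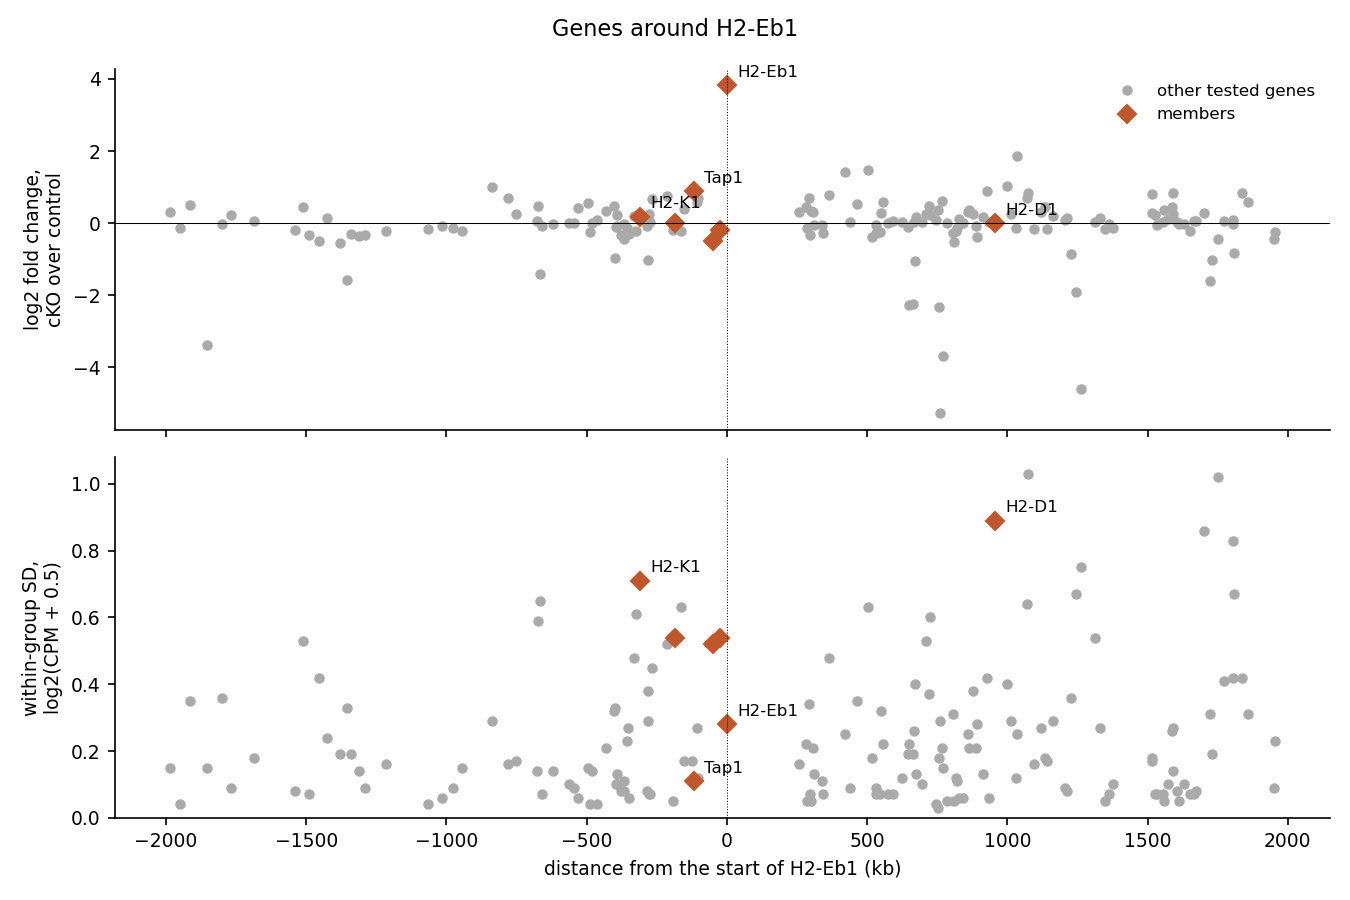
Log2 fold change, cKO over control (top), and within-group SD of log2(CPM + 0.5) (bottom) of genes tested within 2000 kb of H2-Eb1, against distance from the H2-Eb1 start in kb; diamonds are the MHC genes described here and grey points the other genes. H2-Eb1 is the highest point of the upper panel, and H2-D1 and H2-K1 lie high in the lower one.

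The genes that supply peptide to class I molecules changed in part. Of 13 tested, 5 rose and 2 fell by edgeR and 6 did not pass. The list median was 0.10 on the log2 scale, and 53.8% were called, against 35.9% of all genes. Nlrc5, the transactivator of class I genes, had 14, 8 and 18 counts in controls and 83, 92 and 94 in the cKO. Its level rose from 0.316 ± 0.196 to 1.78 ± 0.225 CPM (SD, n = 3 each), with a log2 fold change of 2.56 ± 0.46 (SE) that edgeR called at an adjusted p of 0.00290. The immunoproteasome subunits Psmb9 and Psmb10 rose by 0.83 and 0.39 on the log2 scale, the transporter subunit Tap2 by 0.71 and tapasin (Tapbp) by 0.24. The tapasin-related Tapbpl (log2 fold change -0.76) and the trimming peptidase Erap1 (-0.24) fell. The chaperone Calr, the most expressed of the list, measured 813 ± 5.53 and 840.2 ± 59.5 CPM. The constitutive proteasome subunits Psmb5, Psmb6 and Psmb7, which immunoproteasome subunits replace, had log2 fold changes of -0.16, -0.00 and -0.16, and none of the 3 passed. The call of Tapbp was lost without any 1 of 5 libraries (all but control replicate 3; adjusted p up to 0.137), that of Psmb10 without control replicate 2 or cKO replicate 2 or 3 (up to 0.0621), and that of Psmb9 without cKO replicate 3 (0.0510), all by edgeR. The call of Erap1 was lost without control replicate 1 or 2 or cKO replicate 1 or 2 (adjusted p up to 0.134 by edgeR).

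Of 16 tested genes that process class II antigen or act beside class II molecules, 5 rose and 2 fell by edgeR and 9 did not pass. The list median was 0.11 on the log2 scale, and 43.8% were called, against 35.9% of all genes. Cd80 and Cd40, a costimulatory ligand and receptor, rose by 1.16 and 0.61 on the log2 scale. The lysosomal proteases Lgmn, Ctss and Ctsl, which trim the invariant chain or antigen, rose by 0.48, 0.31 and 0.24. Ifi30, the lysosomal thiol reductase GILT, fell from 101 ± 7.90 to 40.1 ± 3.81 CPM (SD, n = 3 each), with a log2 fold change of -1.34 ± 0.08 (SE). Rfxap, a subunit of the RFX complex that binds the X box, fell by 0.50 on the log2 scale. H2-Eb2, a second E beta gene, had 0 counts in every library. Without 1 library, the calls of Ctss (any but control replicate 2; adjusted p up to 0.103), Cd40 (control replicate 1 or 3 or cKO replicate 2 or 3; up to 0.0945) and Ctsl (cKO replicate 1; 0.0616) were lost by edgeR.

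Among the other class I and class I-like genes, 1 of 15 tested rose, 2 fell and 12 did not pass. The list median was 0.26 on the log2 scale, and 20.0% were called, against 35.9% of all genes. H2-T23, the Qa-1 heavy chain recognised by natural killer cell receptors, had 1129, 1406 and 645 counts in controls and 350, 308 and 417 in the cKO. It fell by 1.60 on the log2 scale, with an adjusted p of 4.42e-04 by edgeR. H2-T22, a class Ib ligand of gamma-delta T cells, fell from 58.0 ± 4.74 to 28.8 ± 4.70 CPM (SD, n = 3 each), by 1.01 on the log2 scale. Fcgrt, the neonatal Fc receptor, rose by 0.38, a call lost without control replicate 1 or any 1 of the 3 cKO libraries (adjusted p up to 0.108 by edgeR). H2-M2 was removed by the filter on low counts: it had 0 counts in every control library and 45, 12 and 24 in cKO skin, at least 8.45-fold higher against a floor of 3 counts per library.

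None of the 6 interferon genes looked up was detected, and genes of interferon reception and signalling changed in both directions. Ifng, Ifnb1, Ifnk, Ifne, Ifnl2 and Ifnl3 had 0 counts in all 6 libraries. Of 15 tested receptor and signalling genes, 4 rose and 2 fell by edgeR and 9 did not pass. The list median was 0.08 on the log2 scale, and the 40.0% called lay near the 35.9% of all genes. The transcription factor Irf1 and the feedback inhibitor Socs1 each rose by 0.55 on the log2 scale, and the type I receptor chains Ifnar2 and Ifnar1 by 0.45 and 0.20. The kinases Jak1 and Tyk2 fell by 0.34 and 0.18. The calls of Socs1 (without control replicate 2 or 3 or cKO replicate 1 or 3; adjusted p up to 0.0762) and Tyk2 (without any 1 of the 6 libraries; up to 0.177) were lost by edgeR.

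Of 12 tested interferon-gamma-induced genes, 6 rose by edgeR, 0 fell and 6 did not pass. For background, 16.3% of all genes rose and 19.6% fell. The list median was 0.76 on the log2 scale. The chemokine Cxcl9 had 13, 15 and 5 counts in controls and 38, 58 and 28 in the cKO, a log2 fold change of 1.82 ± 0.41 (SE). The interferon-inducible GTPases Iigp1, Gbp2 and Igtp rose by 1.51, 1.20 and 1.02 on the log2 scale. Gbp7, the most expressed, had a log2 fold change of 0.50 and did not pass (adjusted p of 0.0545 by edgeR). Iigp1 overlapped between the groups, and its call was lost without control replicate 1 or 2 or cKO replicate 2 or 3 (adjusted p up to 0.126 by edgeR). Over all 6 pathway lists, 21 of 74 genes tested rose and 8 fell, where 16.3% of all genes rose and 19.6% fell. In either direction 39.2% were called, against 35.9% of all genes, with a median log2 fold change of 0.20. Without cKO replicate 3 the number that rose was 12. With leukocyte scaling 7 of the 21 were still called higher (Nlrc5, Cd80, Gbp2, Irgm2, Igtp, Iigp1 and Cxcl9). With pan-epithelial scaling all 21 were still higher, while of the 8 that fell Erap1 (0.70), Rfxap (0.44), Jak1 (0.60) and Tyk2 (0.76) were called higher, and Tapbpl (0.16) and H2-T22 (-0.08) were not called.

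**Figure D4:**
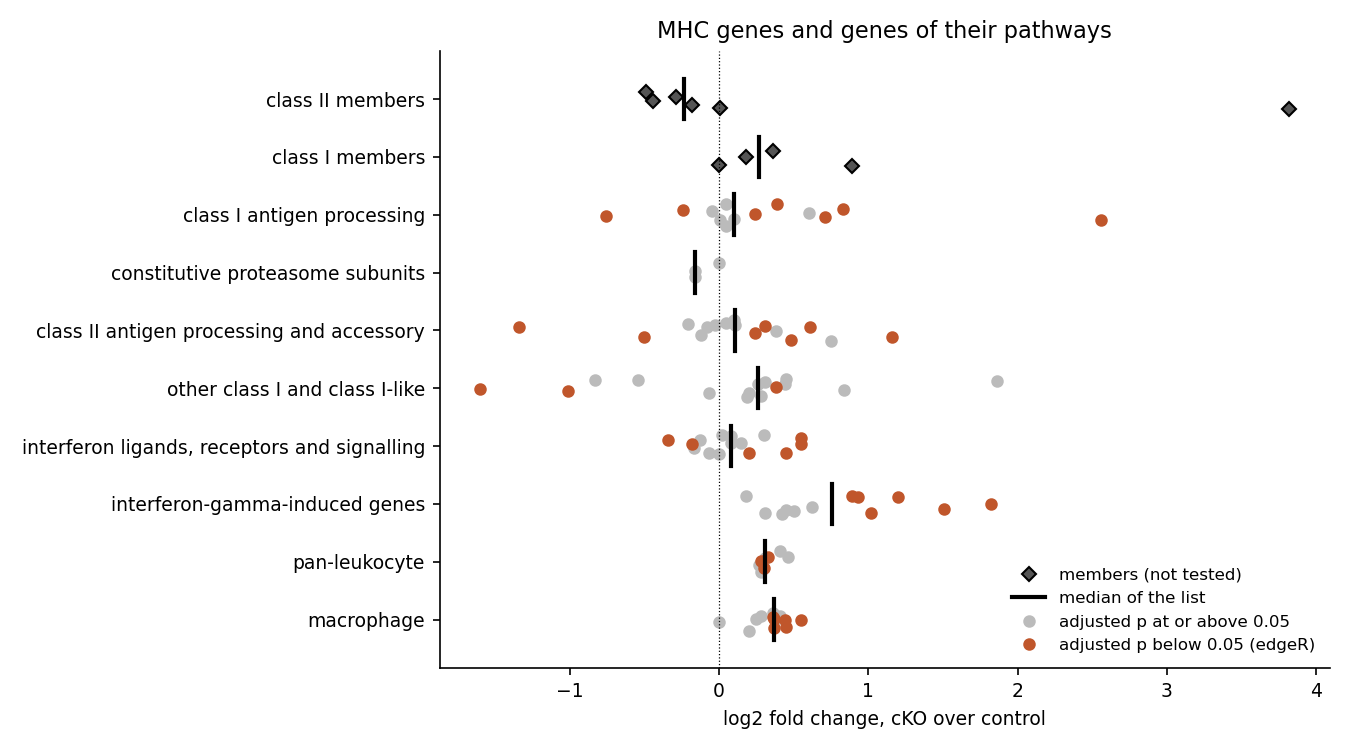
Log2 fold change, cKO over control (horizontal axis), of the 10 MHC genes (diamonds, not tested) and of the tested genes of 8 lists (circles; orange, adjusted p below 0.05 by edgeR), with the median of each row as a vertical bar. H2-Eb1 is the point at 3.82, the other class II genes lie between -0.49 and 0.01, and the interferon-gamma-induced genes have the highest list median, 0.76.

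Leukocytes include the usual class II producers. Of 37 tested leukocyte marker genes, 12 rose and 1 fell by edgeR, where 16.3% of all genes rose and 19.6% fell. In either direction 35.1% were called, against 35.9% of all genes, which hides that the calls were nearly all higher. Of 8 pan-leukocyte genes, Laptm5, Coro1a and Tyrobp rose (log2 fold changes of 0.30, 0.28 and 0.33), and Ptprc (0.41), Cd52 (0.46), Fcer1g (0.28), Itgb2 (0.31) and Cd53 (0.27) did not pass. Of 13 macrophage genes 6 rose by edgeR, among them Fcgr1 (0.55), C1qc (0.45), Mrc1 (0.44) and Cx3cr1 (0.37), 0 fell and 7 did not pass. The calls of Cx3cr1 and Fcgr1 (adjusted p up to 0.127 and 0.131) and of Tyrobp (up to 0.0872) were lost without control replicate 1 or 2 or cKO replicate 1 or 3, and that of Coro1a without cKO replicate 1 or 3 (up to 0.0547), by edgeR. The summed macrophage genes ranged from 371 to 485 CPM in controls and from 506 to 561 CPM in the cKO, and the pan-leukocyte genes from 166 to 183 and from 193 to 225 CPM. Of 6 tested dendritic and Langerhans cell genes, Zbtb46 rose by 0.60 on the log2 scale, and Flt3 (0.90), Siglech (0.95), Clec9a (0.04), Cd209a (0.06) and Batf3 (0.06) did not pass. The summed level of that list was 9.68 to 10.7 CPM in controls and 13.5 to 16.1 CPM in the cKO. Zbtb46 alone made up most of it, with means of 7.69 CPM in controls and 11.6 CPM in the cKO. Cd207, a marker of Langerhans cells, had 0 counts in every library, which alone does not decide whether cells of that lineage were present.

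Of the B cell genes, Cd79b rose (0.90), a call that could be lost without 1 library (adjusted p up to 0.0972 without cKO replicate 3, by edgeR). Ms4a1 had 0 counts in every library, and the B cell list summed to 1.65 to 2.50 CPM in controls and 2.33 to 3.88 CPM in the cKO. The T cell genes Cd3g (-1.90), Trbc2 (-0.44) and Cd4 (0.37) did not pass, Cd3d and Cd8a had 0 counts, and the list summed to 2.48 to 4.78 CPM in controls and 2.77 to 3.60 CPM in the cKO. Of the mast cell genes, Mcpt4 rose (1.35, a call lost without control replicate 2 or 3 or cKO replicate 1 or 3, with adjusted p up to 0.105 by edgeR), and Cpa3 (0.29), Cma1 (0.43), Tpsb2 (0.62) and Mrgprb2 (0.62) did not pass. All 7 endothelial genes rose with TMM scaling (median 0.33), and with leukocyte scaling none of the 7 was called. Without 1 library the calls of Kdr (4 of the 6 libraries; adjusted p up to 0.151), Tie1 (4; up to 0.0861) and Emcn (5; up to 0.137) were lost by edgeR. Among the pan-epithelial genes St14 rose (0.70) and Spint1 did not pass (-0.16). Over all cell type lists 20 of 60 genes rose by edgeR and 15 fell, where 16.3% of all genes rose and 19.6% fell. In either direction 58.3% were called, against 35.9% of all genes. Of the 20, 9 kept their call whichever library was left out, and Mcpt4 alone kept it with leukocyte scaling. The pan-leukocyte and macrophage genes among the 20 set that scaling, so the loss of their calls follows largely from the calculation. The number that rose was 13 without control replicate 2, 10 without cKO replicate 1 and 10 without cKO replicate 3.

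Set against the leukocyte genes, H2-Eb1 and the other class II genes diverged. The summed class II genes divided by the summed pan-leukocyte and macrophage genes gave 0.0295, 0.0470 and 0.0365 in controls and 0.0566, 0.0841 and 0.0613 in the cKO, a difference of 0.84 on the log2 scale. With H2-Eb1 left out, a choice made after the values were seen, the ratio was 0.0337 ± 0.00800 in controls and 0.0225 ± 0.00670 (SD, n = 3 each) in the cKO, a difference of -0.60 with groups that overlap. Over the macrophage genes alone that difference was -0.62 and the groups did not overlap, and over the pan-leukocyte genes alone it was -0.55 and they overlapped. H2-Eb1 alone differed by 3.49 on this scale, with groups that do not overlap. The class I ratio was 0.313 ± 0.0289 in controls and 0.304 ± 0.00962 (SD, n = 3 each) in the cKO, a difference of -0.04. Which cells carry the H2-Eb1 transcript was not measured, and the part of leukocyte number in the other values was not tested.

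The genes most like the class II mean over the 6 libraries, by Pearson correlation of log2(CPM + 0.5), were Coq3 (r = 0.995), Mtx2 (0.978), Orc2 (0.965), Cbr4 (0.958), Tbccd1, Rnf130 and Tpt1-ps5 (0.955 each), Timm9 (0.950), Zfp992 (0.949) and Smarca5-ps (0.948). Among the genes most like the class I mean were Tmtc3 (0.996), Cstf3 and Cdh11 (0.994 each), Fndc4 (0.993), Mpdz (0.992), Sec61a2 and Parp9 (0.990 each) and Rnd3 (0.989). They were drawn from 15659 genes with a mean log2 CPM of at least 0, after leaving out Gm, Rik and accession-style symbols. H2-K1 and H2-D1 correlated at -0.87 over the 6 libraries, and H2-Eb1 did not follow the other class II genes. Neither class mean therefore stands for a pattern that all its genes share. As extremes among many genes over 6 libraries of 2 genotypes, the genes named here are given as a description.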

How the data were processed

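RNA from back skin was made into stranded mRNA libraries (TruSeq) and sequenced as paired reads on a NovaSeq6000, per the labels' protocols. STAR, StringTie, DESeq2 and the build mm10 are named in the submitters' processing notes, without versions, and how reads were counted is not stated there. The deposited table holds unnormalised counts of 55401 identifiers in each of 6 libraries, used here as they stand. More genes had a count of 3 than of 2 in every library (994 against 808 in control replicate 1), so a count may stand for less than 1 read, and floors may be too narrow. Beside the counts, the authors' deposited DESeq2 columns hold a mean normalized signal, log2 fold changes, a test score, p-values and adjusted p-values. The b column of the deposited Sleuth table is on the natural log scale: its median ratio to the log2 fold change was 0.673, and the natural log of 2 is 0.693. A DESeq2 fit of the counts matched the deposited log2 fold changes within 0.01 for 100% of genes.

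From the counts, edgeR 4.0.16 (R 4.3.3) kept 19227 genes by filterByExpr, scaled libraries by TMM and compared the groups with the quasi-likelihood test. P-values were adjusted by Benjamini-Hochberg over all genes tested, with a threshold of 0.05. CPM uses TMM-scaled library sizes, and patterns use log2(CPM + 0.5). The labels describe separate embryos, and no replicate is pooled. Coordinates and exon lengths are from GENCODE M21 on GRCm38, which held 99.5% of the identifiers. An exon length is the union of all annotated exons of a gene, so ratios per kilobase between genes depend on it. Promoters are from RefSeq (GRCm38.p6), and DESeq2 1.42.0, limma 3.58.1 and Python 3.11.15 with SciPy 1.17.1 and Biopython 1.88 made the alternatives, permutation test and sequence comparisons. The edgeR step was tested on simulated data.

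The 10 genes and all lists were chosen with earlier results of these data known. Named genes are the 10 MHC genes, Prmt5, and, for each pathway and leukocyte list, every called gene where a direction had 5 or fewer (otherwise the 4 largest changes), the most expressed gene, and genes not called where 5 or fewer. The 10 genes most like each class by correlation were added, among genes with a mean log2 CPM of at least 0 and no Gm, Rik or accession-style symbol. A few genes that these rules name are not reported here, though they stay in the fits, counts and sums. Alternatives were RLE and upper-quartile scaling, scaling to the pan-epithelial and to the leukocyte lists, no filter, a CPM filter (1 CPM in 3 libraries), DESeq2, limma-voom, a replicate block, an adjusted p of 0.01 and leaving out each library.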

Additional observations from a re-analysis of the deposited data

How the results depend on the processing

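Relative to the median of all genes the values of the 10 MHC genes were close to each other under all 5 scalings tried (H2-Eb1 between 3.83 and 3.85, H2-Ab1 between -0.52 and -0.47, B2m between 0.36 and 0.37 and Tap1 at 0.90). A scaling moves all genes by nearly the same amount, and subtracting the median removes it. This closeness therefore follows from the calculation and is no check of the values. The median itself was -0.008 with TMM, 0.094 with upper-quartile, 0.928 with pan-epithelial and -0.363 with leukocyte scaling. Pan-epithelial scaling therefore made H2-Aa (0.72), H2-Ab1 (0.41), Cd74 (0.63) and Ciita (0.47) higher in the cKO, and leukocyte scaling made H2-K1 (-0.11), H2-D1 (-0.44) and H2-DMa (-0.29) lower. H2-Eb1 ranged from 3.49 to 4.76, Tap1 from 0.53 to 1.83 and B2m from 0.00 (leukocyte scaling) to 1.29 (pan-epithelial scaling) over the alternatives that keep all libraries. Pan-epithelial scaling gave medians of 0.67 for class II and 1.20 for class I, a Prmt5 change of -0.12 that no longer passed, 15225 higher and 827 lower genes, 64 higher and 2 lower pathway genes, and 42 higher and 7 lower cell type genes. Leukocyte scaling gave medians of -0.59 for class II and -0.05 for class I, 714 higher and 7523 lower genes, 7 higher and 21 lower pathway genes and 1 higher cell type gene. The cell type lists hold the genes that set these scalings, so their counts follow in part from the calculation. Of the 21 pathway genes that rose, 7 kept their call with both scalings, as did 2 of the 8 that fell. At an adjusted p of 0.01 there were 1825 higher genes, 10 higher pathway genes and 8 higher cell type genes. The class II to leukocyte log2 difference of 0.84 reversed to -0.60 with H2-Eb1 left out of the sum, since H2-Eb1 holds most of the sum in the cKO.

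Leaving out each library in turn gave 2460 to 2780 higher and 3002 to 3293 lower genes, 12 to 20 higher and 6 to 8 lower pathway genes, and 10 to 25 higher and 14 to 15 lower cell type genes. Prmt5 ranged from -1.28 to -0.91, the class II median from -0.51 to -0.00, the class I median from 0.23 to 0.50 and the class II to leukocyte difference from 0.67 to 1.01. H2-Eb1 ranged from 3.66 to 3.98, Tap1 from 0.85 to 1.00 and B2m from 0.25 to 0.44. H2-K1 (-0.14 to 0.62), H2-D1 (-0.43 to 0.52), H2-DMa (-0.35 to 0.37) and H2-Aa (-0.55 to 0.16) took both signs. The CPM filter removed Ciita.

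The deviations of libraries from their group means correlated at -0.328, -0.109 and -0.232 between same-numbered control and cKO libraries. Between libraries of different numbers they correlated at -0.07 to 0.269. With 3 embryos a group the deviations cancel within each group, so these correlations constrain one another. They show no likeness of same-numbered libraries and cannot decide whether embryos were paired, for example by litter. With the replicate block, 2723 genes were higher and 3375 lower, 19 pathway genes were higher and 7 lower, 22 cell type genes were higher and 14 lower, Prmt5 stood at -1.03, and the class II and class I medians were -0.28 and 0.32. With 3 embryos a group, the wide spread of the heavy chains and the low counts of Ciita, H2-DMb2 and the H2-Q genes limit what can be resolved.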

Other observations

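Genes far from the H2 region on chromosome 17 varied between libraries in the same way as H2-K1 and H2-D1. Of the 100 genes most like H2-D1 over the 6 libraries, 22% lie on chromosome 17, and of the 100 most opposite to it 14%, where 4.69% of 15659 genes do. For H2-DMa the shares were 11% and 19%, for H2-K1 10% and 15%, and for Tap1 and B2m between 1% and 6%. Tpsab1, the mast cell tryptase mMCP-7 (chromosome 17, 25343245 to 25345562), had 30, 644 and 718 counts in controls and 827, 1826 and 36 in the cKO. It was low in the same 2 libraries, control replicate 1 and cKO replicate 3, in which H2-K1 was lowest. Tpsg1, a neighbouring tryptase gene, had 559, 504 and 17 counts in controls and 297, 88 and 699 in the cKO, and was lowest in the 2 libraries in which H2-D1 was lowest. The ribosomal protein gene Rps2 on the same chromosome measured 1232, 889.8 and 548 CPM in controls and 770.0, 539.5 and 1047 CPM in the cKO. These genes were chosen after their values were seen.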
